A study of Rattus norvegicus with 35 samples.

Results

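The subunits of the mitochondrial respiratory chain and of ATP synthase were examined in the livers of rats dosed with 2-ethylhexyl-2,3,4,5-tetrabromobenzoate, a brominated flame retardant abbreviated TBB. Genes were chosen by symbol, as those starting with Ndufa, Ndufb, Ndufc, Ndufs or Ndufv (complex I), Sdha to Sdhd (complex II), Uqcr (complex III), Cox4 to Cox8 (complex IV) or Atp5 (complex V), with the assembly factors left out. This gave 80 genes of the 14217 with a single-symbol probe set: 36 for complex I, 4 for complex II, 7 for complex III, 17 for complex IV and 16 for complex V. Each gene was represented by its probe set with the highest mean over the 35 arrays, so levels are given as a description. No comparison between doses entered that pick of a probe set. The group of genes itself was chosen with earlier results of these data known. Atp5mc1, Atp5mc2, Cox7a2 and Cox8c had no single-symbol probe set and were not analysed here.

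Male Harlan Sprague Dawley rats, aged 7 weeks at the start and fed NTP-2000 diet, received corn oil alone (vehicle, 5 arrays) or TBB in corn oil at 550, 55, 5.50, 0.55 or 0.05 mg/kg (6 arrays each). Dosing was by gavage at 5 ml/kg once a day on 5 consecutive days, and the left liver lobe was taken 1 day after the last dose, so that all groups shared the oil and the handling. RNA from whole tissue was measured on 3' expression arrays, and each value is a log2 expression value of a probe set. The labels number the samples of a group without stating whether 1 rat gave 1 array, and p-values therefore reflect the scatter among labelled samples, part of which may be technical. In whole tissue, fewer cells of a type and less RNA per cell cannot be told apart.

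The respiratory chain sits in the inner mitochondrial membrane. Complex I takes electrons from NADH and complex II from succinate, coenzyme Q carries them to complex III and cytochrome c carries them on to complex IV, where oxygen is reduced. Complexes I, III and IV pump protons, and complex V (ATP synthase) uses their return to make ATP. Hepatocytes are rich in mitochondria and rely on this chain to reoxidise the cofactors reduced by fatty acid oxidation and the tricarboxylic acid cycle. All subunits of complex II are encoded in the nucleus, whereas the other complexes join nuclear subunits with some made from mitochondrial DNA.

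The stretches before the start sites of the chosen genes were also described. Of the 80 genes, 72 had an entry among RefSeq promoters (assembly GRCr8), and the 250 bases before each start were searched on both strands for 7 short motifs. The sequence CGCANGCGC, bound by nuclear respiratory factor 1 (NRF1), occurred in 19.4% of the 72 promoters and in 5.58% of all 27457 promoters of the table. The ETS family sequence CCGGAAG, bound by GABP, occurred in 26.4% against 7.74%, and the YY1 sequence AANATGGCG in 4.17% against 1.45%. The GC box GGGCGG was present in 36.1% against 32.4%, CCAAT in 33.3% against 34.3% and the aryl hydrocarbon receptor core GCGTG in 37.5% against 27.2%. The estrogen-related receptor sequence TCAAGGTCA was present in 1.39% against 0.368%. The NRF1 sequence can hold the GCGTG core within it, a match describes letters and not a site in use, and no binding was measured here. Among the 13 complex IV promoters, some of them of genes dim in liver, 0 held the NRF1 sequence and 2 the ETS sequence. Among the 34 complex I promoters 6 and 7 held them. Beside these stand the shares of 5.58% and 7.74% over all promoters, and no difference between complexes was tested. Any relation of the motifs to dose was not tested either.

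The upstream stretches of 5 of the genes named in the results follow, 5' to 3' on the gene's own strand, with matches to the motifs above in capitals. Ndufs1 (complex I) lies on the minus strand and its stretch is chr9:72073606-72073855, where the capitals mark a reversed ETS match and a reversed YY1 match. Uqcrfs1 (complex III, plus strand, chr17:34186352-34186601) holds a reversed GC box and a reversed aryl hydrocarbon receptor core. Sdha (complex II, plus strand, chr1:30764303-30764552) holds a reversed CCAAT, 2 NRF1 matches and an aryl hydrocarbon receptor core. Sdhb (complex II, plus strand, chr5:158547684-158547933) holds an ETS match. Atp5if1 (complex V, minus strand, chr5:150026678-150026927) holds a reversed CCAAT and a reversed GC box.
Ndufs1: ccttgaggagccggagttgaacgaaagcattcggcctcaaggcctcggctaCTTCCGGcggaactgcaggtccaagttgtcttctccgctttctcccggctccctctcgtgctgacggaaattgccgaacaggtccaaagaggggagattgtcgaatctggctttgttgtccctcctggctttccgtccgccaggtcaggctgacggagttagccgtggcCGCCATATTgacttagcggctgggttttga
Uqcrfs1: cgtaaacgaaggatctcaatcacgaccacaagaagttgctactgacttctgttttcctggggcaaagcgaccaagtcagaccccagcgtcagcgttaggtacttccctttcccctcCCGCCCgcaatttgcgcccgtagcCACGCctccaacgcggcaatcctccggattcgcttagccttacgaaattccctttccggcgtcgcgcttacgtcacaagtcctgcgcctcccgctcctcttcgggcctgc
Sdha: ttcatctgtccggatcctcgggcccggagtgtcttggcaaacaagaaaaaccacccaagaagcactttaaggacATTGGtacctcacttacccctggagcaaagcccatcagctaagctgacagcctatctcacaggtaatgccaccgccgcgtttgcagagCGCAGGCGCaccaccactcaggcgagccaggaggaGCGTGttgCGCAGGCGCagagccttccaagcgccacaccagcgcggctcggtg
Sdhb: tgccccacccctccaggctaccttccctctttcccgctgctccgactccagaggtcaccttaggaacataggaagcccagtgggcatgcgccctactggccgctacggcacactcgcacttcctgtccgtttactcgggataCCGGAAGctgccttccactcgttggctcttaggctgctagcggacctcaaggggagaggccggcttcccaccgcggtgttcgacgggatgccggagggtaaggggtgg
Atp5if1: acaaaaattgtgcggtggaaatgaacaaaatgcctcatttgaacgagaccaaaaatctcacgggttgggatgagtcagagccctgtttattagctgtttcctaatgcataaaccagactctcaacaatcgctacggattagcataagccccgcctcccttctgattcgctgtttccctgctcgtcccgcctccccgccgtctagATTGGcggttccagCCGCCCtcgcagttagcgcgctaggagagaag

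The probe sets of 72 genes were among the brightest on the arrays, and those of the other 8 were dim. In vehicle, the 72 lay at percentile 89.1 (Atp5if1) to 99.7 (Atp5f1b) of all probe sets. The 8 dim ones lay at percentiles 11.3 to 46.9. Of these, Cox6a2, Cox7a1 and Cox8b are the forms of heart and skeletal muscle, Cox4i2 is the lung form, Cox6b2 and Cox7b2 are known from testis, Ndufa4l2 is a hypoxia-responsive relative of Ndufa4, and Cox6c-ps1 is a pseudogene. The liver forms of the same subunits, Cox4i1, Cox6a1 and Cox8a, were all among the 72. A list of 10 striated muscle markers lay at mean log2 values of 3.96 to 4.17 over the 35 arrays, near the dim end. The symbol rule also took in Cox7a2l, known for joining complexes into supercomplexes, and Ndufa4, now counted with complex IV by many authors.

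The arrays were alike, with pairwise correlations of 0.988 to 0.996, and none stood apart. The members had a median residual SD within groups of 0.071, against 0.141 over all probe sets. Most members are bright, and probe sets of like brightness were not compared. The dim members had residual SDs from 0.11 (Ndufa4l2) to 0.23 (Cox6b2). Hepatocyte markers, 11 of 12 measured, marked the tissue as labelled, with mean log2 values of 13.54 to 13.69 over all arrays. The 3' minus 5' signal of the control transcripts, a sign of RNA quality, overlapped between every dose and vehicle.

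The first question was whether any dose below the highest changed the subunits. No member passed at 0.05, 0.55, 5.50 or 55 mg/kg against vehicle (limma, adjusted p under 0.05, Benjamini-Hochberg over 31042 probe sets). Among all probe sets 0%, 0%, 0% and 0.00644% were called in these comparisons. At an unadjusted p under 0.05 there were 2, 0, 1 and 1 of the 80 members, against 6.05%, 3.86%, 4.95% and 4.2% of all probe sets, and a linear model without variance moderation also called 0 at each of these doses. At 0.05 mg/kg, 63 of 80 members lay below vehicle with a median change of -0.04. Among all probe sets 51.9% lay above vehicle there, and their median was 0.00. At 0.55, 5.50 and 55 mg/kg the members' medians were 0.01, 0.00 and 0.02. All comparisons with vehicle share its 5 arrays.

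At 550 mg/kg, 2 members rose against vehicle and none fell (2.5% of members, against 0.499% of all probe sets called). They were Ndufs1, the largest subunit of complex I, which carries iron-sulfur clusters in the NADH-oxidising arm, and Uqcrfs1, the Rieske iron-sulfur protein that takes electrons from coenzyme Q in complex III. The changes were small. The other members did not pass, although 66 of 80 members had a positive difference, against 51% of all probe sets. An unadjusted p under 0.05 was found for 17 members, all of them higher. Among all probe sets 8.67% had such a p, 4.45% of them on the higher side and 4.22% on the lower. The median change was 0.05 over the members and 0.00 over all probe sets.

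Ndufs1 read 10.38, 10.38, 10.53, 10.53 and 10.49 in the 5 vehicle arrays, and its lowest, median and highest values at 550 mg/kg were 10.58, 10.71 and 10.79. The 6 arrays at 550 mg/kg all lay above the vehicle arrays. At the doses between, the medians stayed at 10.41, 10.45, 10.39 and 10.49, and single arrays at 5.50 and 55 mg/kg reached 10.59 and 10.60, into the range of the top dose. The change was 0.24 ± 0.05 (SE), or 1.18-fold (limma, adjusted p = 0.011). Without vehicle replicate 1 it was 0.22 with an adjusted p of 0.060, and with only the arrays of these groups in the fit the adjusted p was 0.17.

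Uqcrfs1 read 11.89, 11.85, 11.83, 11.84 and 11.79 in vehicle and 11.94, 12.02 and 12.07 (lowest, median, highest) at 550 mg/kg. Its groups did not overlap. The group medians ran 11.84, 11.86, 11.86 and 11.89 from 0.05 to 55 mg/kg, and the highest array at 55 mg/kg, 12.00, lay within the range of the top dose. The rise was 0.17 ± 0.04, or 1.13-fold (limma, adjusted p = 0.044). The call was lost in 9 of the 11 fits that left out 1 array of these groups, each vehicle array and 550 mg/kg replicates 2, 3, 5 and 6, where adjusted p was 0.066 to 0.13, and the change itself kept to 0.16 to 0.19.

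**Figure D1:**
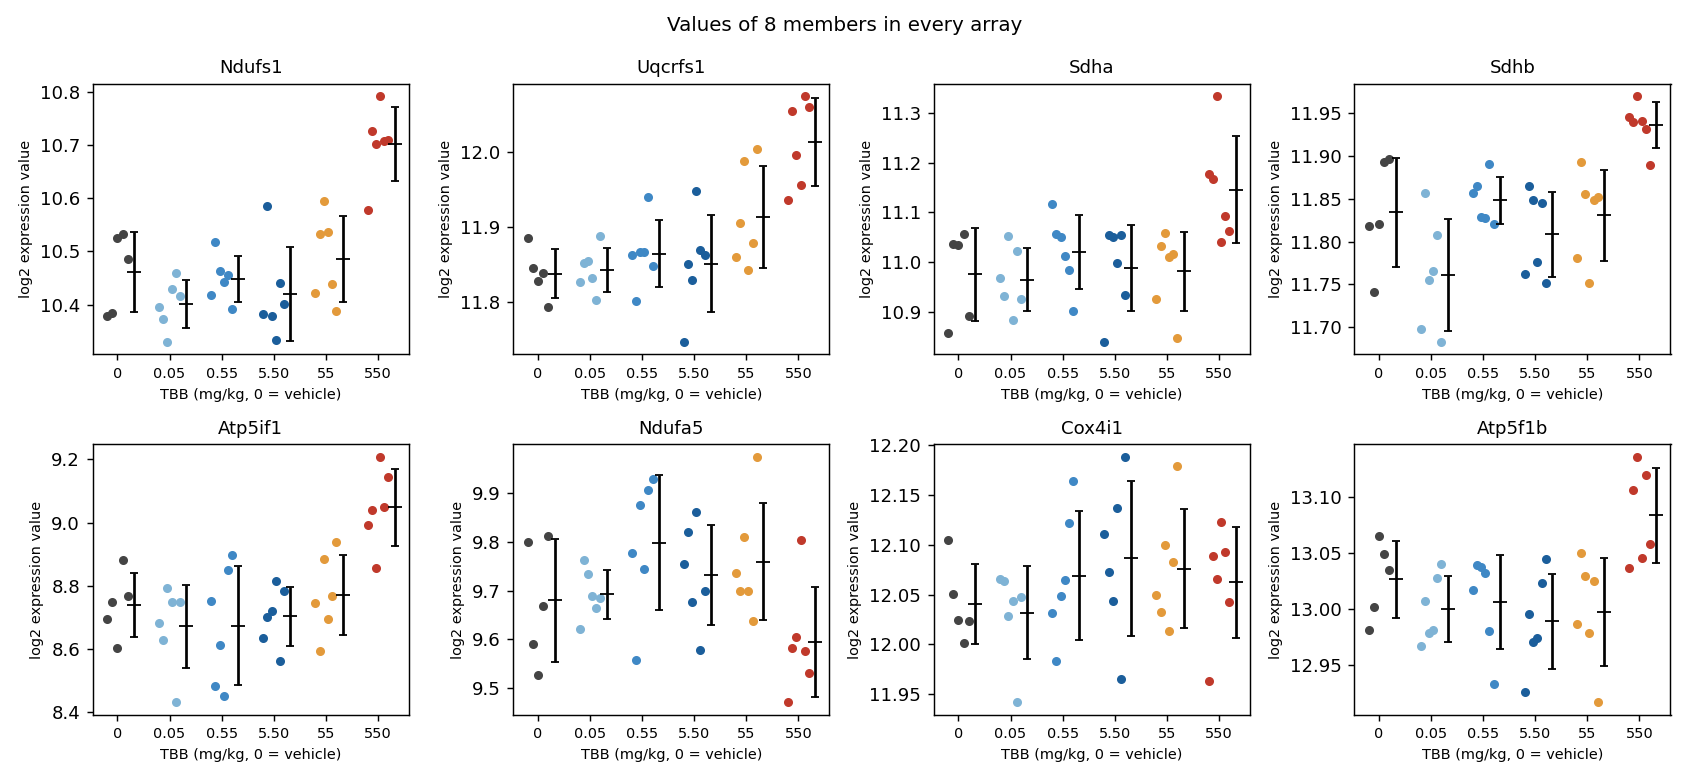
Log2 expression value (vertical axis) of 8 members in each array against TBB dose (horizontal axis, 0 = vehicle), with the group mean ± SD beside the points, vehicle n = 5 and each dose n = 6. Ndufs1 and Uqcrfs1 at 550 mg/kg lie above all vehicle arrays, Atp5if1 overlaps slightly, and Cox4i1 and Ndufa5 overlap over most of their range.

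Non-overlap with vehicle in all 6 arrays at 550 mg/kg was found for 3 members, all higher (Ndufs1, Uqcrfs1 and Sdhd, an anchor of complex II in the membrane), against 0.796% of all probe sets. None lay wholly above the 23 arrays of vehicle and the 3 lowest doses, where 0.203% of probe sets did, and none lay wholly above the 55 mg/kg arrays, where 0.825% did. None lay wholly below either set, where 0.0354% and 0.329% of probe sets did. The mean of the hepatocyte markers was 13.62 to 13.66 in vehicle and 13.54 to 13.59 at 550 mg/kg, without overlap, a difference of -0.08, with 8 of 11 negative. Apoa1, which encodes the main protein of high-density lipoprotein, fell by 0.51 and was the only one past the threshold. Without Apoa1 the mean of the other 10 was 13.65 to 13.68 in vehicle and 13.60 to 13.66 at 550 mg/kg, which overlapped, and differed by -0.04. Red blood cell markers, 3 of 7 measured, ran from 7.79 to 8.25 in vehicle and from 7.46 to 7.87 at 550 mg/kg, and Kupffer cell markers, 8 of 11 measured, from 8.51 to 8.90 and from 8.12 to 8.79. Their part in the members' changes was not tested.

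Comparison of the top dose with the dose below it uses no vehicle array. Ndufs1 alone passed between 550 and 55 mg/kg, at 0.22 ± 0.05 (limma, adjusted p = 0.015), where 0.686% of all probe sets were called and 0.577% were called higher. It was not called without 55 mg/kg replicates 1 or 6 or without 550 mg/kg replicate 4, when 0 members passed, and 2 members passed without 550 mg/kg replicate 3. Of the 80 members, 56 lay higher at 550 mg/kg, against 48.9% of all probe sets, with a median difference of 0.03. Atp5if1, which encodes the inhibitor that blocks ATP hydrolysis by complex V, had the largest difference, 0.28 ± 0.08 (adjusted p = 0.081). Ndufa5, an accessory subunit of complex I, differed by -0.16 ± 0.07 (adjusted p = 0.37).

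The 550 mg/kg mean was also set against the equally weighted mean of vehicle and the 3 lowest doses, which brings in 23 reference arrays. Here 11 members rose and none fell, 13.8% of the 80, against 2.63% of all probe sets called, 1.58% higher and 1.05% lower. They were Ndufs1, Ndufs3, Ndufv2 and Ndufa9 of complex I, Sdha, Sdhb and Sdhd of complex II, Uqcrfs1 and Uqcrc2 of complex III, and Atp5f1c and Atp5if1 of complex V. Complex IV had none among its 17. With the 40% dimmest probe sets left out, 16 of 73 members (21.9%) and 5.57% of probe sets were called. Of all 80 members 69 had a positive change, against 49.7% of probe sets. This contrast shares its 550 mg/kg and vehicle arrays with the one against vehicle alone. Its reference also holds the 0.05 mg/kg arrays, where 63 of 80 members lay below vehicle.

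The count of 11 fell to 5 without 550 mg/kg replicate 3 and to 7 without replicate 4, and ranged up to 14 over the other arrays left out. Ndufs1, Uqcrfs1, Ndufv2, Atp5f1c and Atp5if1 passed in all 29 of these fits.

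**Figure D2:**
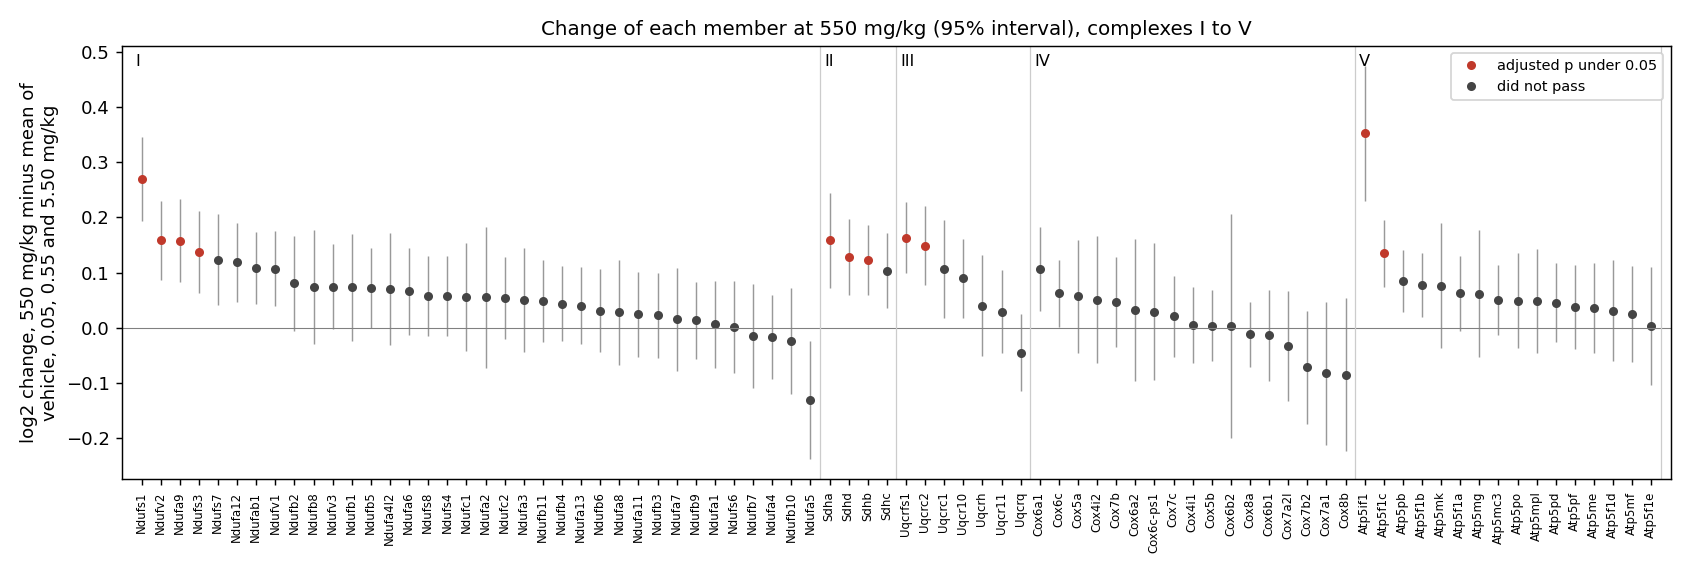
Change of each of the 80 members (horizontal axis, by complex and by size) between 550 mg/kg and the mean of vehicle, 0.05, 0.55 and 5.50 mg/kg, on the log2 scale (vertical axis) with its 95% interval. The 11 red points passed adjusted p under 0.05, all of them above 0 and none in complex IV, and Ndufa5 is the lowest point.

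In complex I, 3 of 6 subunits of its electron-carrying core were called higher against the 23 reference arrays, and 1 of 29 accessory subunits was. Among all probe sets 1.58% were called higher there, and 1 call among 29 is close to that share. The difference between core and accessory subunits was not tested. Beside Ndufs1 (0.27 ± 0.04, adjusted p = 1.6e-05), the core subunit Ndufv2, an iron-sulfur protein next to the NADH site, rose by 0.16 ± 0.03 (adjusted p = 0.0069). Ndufs3, a core protein of the arm that hands electrons to coenzyme Q, rose by 0.14 ± 0.04 (adjusted p = 0.031). The other core subunits measured were Ndufs7 at 0.12 ± 0.04 (adjusted p = 0.10), Ndufv1, which binds NADH and FMN, at 0.11 ± 0.03 (adjusted p = 0.083), and Ndufs8 at 0.06 ± 0.04 (adjusted p = 0.55). The median was 0.13 over the core and 0.05 over the accessory subunits. Against vehicle alone the medians were 0.10 and 0.03, and 1 core and 0 accessory subunits passed, beside 0.499% of all probe sets. There Ndufv2 differed by 0.12 (limma, adjusted p = 0.37) and Ndufs3 by 0.10 (adjusted p = 0.54). The reference mean takes in 0.05 mg/kg, where the medians against vehicle were -0.07 and -0.04. At that dose 0 of 6 core and 3 of 29 accessory subunits were positive.

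Ndufa9, an accessory subunit at the junction of the matrix and membrane arms, rose by 0.16 ± 0.04 (adjusted p = 0.011). Ndufa5 was the lowest of the 80 at -0.13 ± 0.05 (adjusted p = 0.23), and against vehicle alone it read 9.80, 9.59, 9.53, 9.67 and 9.81 in the controls and 9.47, 9.58 and 9.80 at 550 mg/kg. Those ranges overlapped nearly in full. The call on Ndufs3 was lost without 550 mg/kg replicate 2, 3, 4 or 5 (adjusted p 0.085 to 0.10), and that on Ndufa9 without replicate 3 (0.056) or 4 (0.053).

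All 4 subunits of complex II lay higher at 550 mg/kg than in vehicle, by 0.10 (Sdhc) to 0.17 (Sdha), with unadjusted p under 0.05 for each and none past the adjusted threshold. Averaged over the 4 genes, the arrays at 550 mg/kg read 11.520 to 11.586, the 5 vehicle arrays 11.404 to 11.476, and the highest of all 29 arrays below the top dose was 11.517, at 55 mg/kg. The 6 arrays of the top dose thus lay above every other array, though the gap to the nearest was narrow. No single member separated in this way, and how often means of 4 other genes do so was not examined. The other complexes had at most 1 array at 550 mg/kg above all 29 others. No p is given for such means, since the members were chosen with earlier results known.

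Sdha, the flavoprotein that oxidises succinate, read 10.86, 11.04, 11.03, 11.06 and 10.89 in vehicle and 11.04, 11.13 and 11.33 at 550 mg/kg. Replicate 3 of the top dose was its highest array, and the lowest array of that dose lay within the vehicle range. Against the 23 reference arrays it rose by 0.16 ± 0.04 (adjusted p = 0.034), and without 550 mg/kg replicate 1, 2 or 3 the adjusted p was 0.092, 0.084 or 0.19. Sdhb, the iron-sulfur subunit that passes electrons on, read 11.82, 11.74, 11.82, 11.89 and 11.90 in vehicle and 11.89, 11.94 and 11.97 at 550 mg/kg. All but 1 of the top-dose arrays lay above vehicle. It rose by 0.12 ± 0.03 (adjusted p = 0.021), with adjusted p of 0.054, 0.069 and 0.055 without 550 mg/kg replicate 1, 3 or 4.

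Sdhd, a membrane anchor, read 11.86, 11.86, 11.83, 11.91 and 11.78 in vehicle and 11.94, 11.96 and 11.98 at 550 mg/kg, a narrow band above all vehicle arrays. It rose by 0.13 ± 0.03 against the 23 arrays (adjusted p = 0.029), and the call was lost without any 1 of the 6 arrays at 550 mg/kg (adjusted p 0.053 to 0.081). A further Sdhd probe set differed by 0.18 at 550 mg/kg against vehicle (adjusted p = 0.13), beside 0.11 for the one used. Sdhc, the other anchor, differed by 0.10 ± 0.03 (adjusted p = 0.094).

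**Figure D3:**
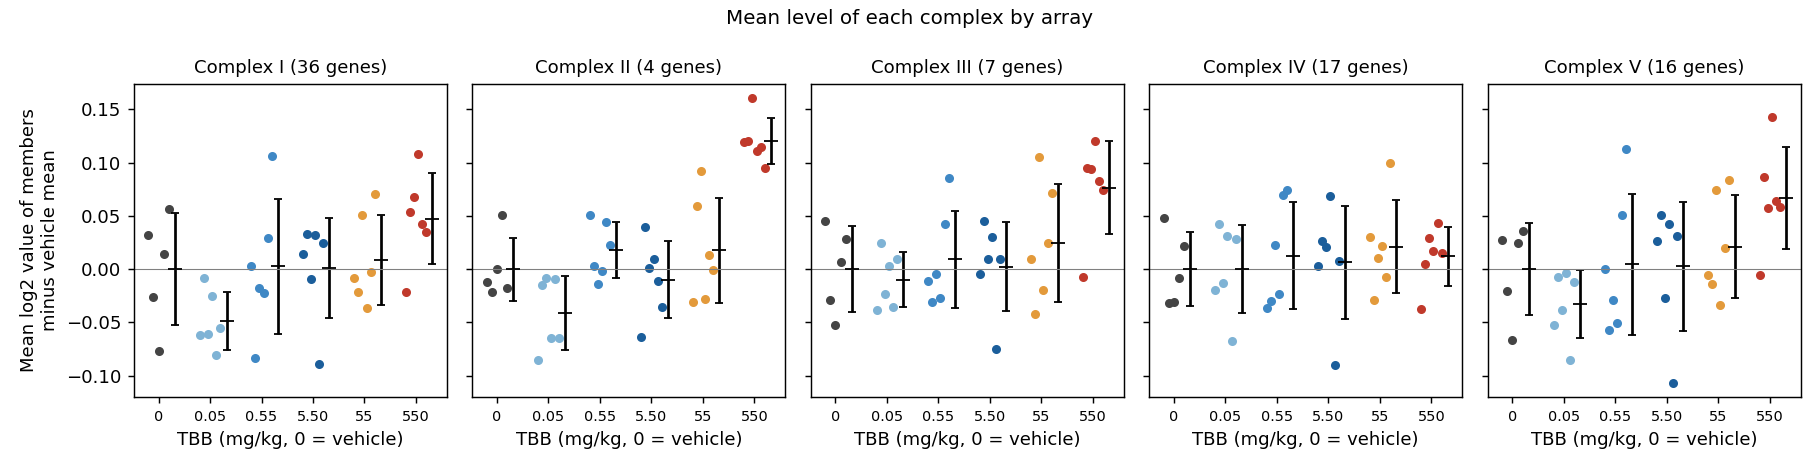
Mean log2 value of the members of each complex in each array, minus the vehicle mean (vertical axis), against TBB dose (horizontal axis), with group mean ± SD, vehicle n = 5 and each dose n = 6. At 550 mg/kg complex II lies 0.12 above the vehicle mean with all 6 arrays above the other 29, complex III 0.08, complex V 0.07, complex I 0.05 and complex IV, with its 7 dim members included, 0.01.

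In complex III, Uqcrfs1 rose by 0.16 ± 0.03 (adjusted p = 0.0020) and Uqcrc2, a core protein of the matrix side, by 0.15 ± 0.03 (adjusted p = 0.012) against the 23 arrays. Its partner Uqcrc1 differed by 0.11 ± 0.04 (adjusted p = 0.25), and the 4 small subunits by -0.04 (Uqcrq) to 0.09 (Uqcr10). Without 550 mg/kg replicate 3 the adjusted p of Uqcrc2 was 0.051. The complex mean lay above every vehicle array in 5 of the 6 arrays at 550 mg/kg.

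Complex IV, cytochrome c oxidase, had the smallest difference from vehicle in its mean of the 5 complexes, 0.01 over all 17 members and 0.02 over the 10 expressed in liver. Of its 10 members expressed in liver 0 passed against the 23 arrays, with differences from -0.03 (Cox7a2l) to 0.11 (Cox6a1, adjusted p = 0.14) and a median of 0.01. Cox4i1, the regulatory subunit around the catalytic core, read 12.11, 12.05, 12.02, 12.00 and 12.02 in vehicle and 11.96, 12.08 and 12.12 at 550 mg/kg. Its groups overlapped fully. The change against vehicle was 0.02 ± 0.04, with a 95% interval of -0.07 to 0.11, so a rise of the size seen for Sdhd lies at the edge of that interval. Cox5a, a matrix-side subunit, differed by 0.01 ± 0.07, Cox6a1 by 0.08 ± 0.05 and Cox6c by 0.09 ± 0.04 (adjusted p = 0.50). The dim forms of other tissues gave no call either, with Cox4i2 at 0.07 ± 0.07, Cox6a2 at 0.07 ± 0.08, Cox7a1 at 0.01 ± 0.08, and Cox6b2 and Cox8b at -0.12 ± 0.13 and -0.11 ± 0.09. Whether complex IV differed from the other complexes was not tested.

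Probe sets for 2 subunits made from mitochondrial DNA were added after their values were seen. COX1 differed by 0.10 ± 0.14 and COX2 by -0.01 ± 0.04 at 550 mg/kg against vehicle (adjusted p = 0.90 and 0.98).

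In complex V the largest difference was that of Atp5if1. It read 8.69, 8.75, 8.60, 8.88 and 8.77 in vehicle and 8.86, 9.04 and 9.21 at 550 mg/kg. The lowest top-dose array, replicate 3, lay within the vehicle range and the other 5 above it. The difference from vehicle was 0.31 ± 0.08, or 1.24-fold, and did not pass (limma, adjusted p = 0.070). Leaving out replicate 3 of the 550 mg/kg group brought the adjusted p to 0.040, and leaving out the 40% dimmest probe sets brought it to 0.046, both past the threshold. Against the 23 arrays it rose by 0.35 ± 0.06, or 1.28-fold (adjusted p = 4.2e-04), and further probe sets of the gene, dimmer, differed by 0.24 and 0.18 against vehicle without passing. Atp5f1c, the central stalk subunit gamma, rose by 0.13 ± 0.03 (adjusted p = 0.0079).

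The catalytic ring of complex V gave no call. Atp5f1b, the catalytic beta subunit, differed by 0.08 ± 0.03 (adjusted p = 0.17) and Atp5f1a, the alpha subunit, by 0.06 ± 0.03 (adjusted p = 0.45) against the 23 arrays. Atp5mc3, which encodes the proton-carrying c ring protein, differed by 0.05 ± 0.03. All 16 members had a positive change there, 14 of them without passing, while against vehicle alone Atp5mf lay at -0.01 ± 0.06.

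A slope on dose rank, from 0 for vehicle to 5 for 550 mg/kg, called no member (limma, adjusted p under 0.05). Among all probe sets 0.171% were called, 0.0966% rising and 0.0741% falling. At an unadjusted p under 0.05 there were 21 of 80 members, all rising, against 9.42% of all probe sets, 4.61% rising and 4.81% falling. The smallest adjusted p were those of Uqcrfs1 (0.03 per step, adjusted p = 0.054) and Ndufs1 (0.04 per step, adjusted p = 0.067). A linear model without variance moderation called 1 member. Of the 80 slopes 69 were positive, against 50.9% of all probe sets. From 0 to 2 members passed when 1 array was left out, 2 without 55 mg/kg replicate 1 and 1 without vehicle replicate 1, 2, 3 or 4, 5.50 mg/kg replicate 1 or 55 mg/kg replicate 4, 5 or 6.

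The members varied together from array to array within dose groups. After the group means were taken out, the median correlation over pairs of members was 0.38 within complex I, 0.36 within complex V, 0.24 within complex III, 0.15 within complex IV and 0.08 over the 6 pairs of complex II. Pairs from different complexes had a median of 0.29, and all pairs of single-symbol genes 0.00. The pairs share the same 35 arrays and their normalization, so these values describe the arrays and carry no test. The plot of complex means by array shows the same: complexes I and V ran along a common line in every dose group, while for complex II the top dose lay above the rest at any level of complex I.

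**Figure D4:**
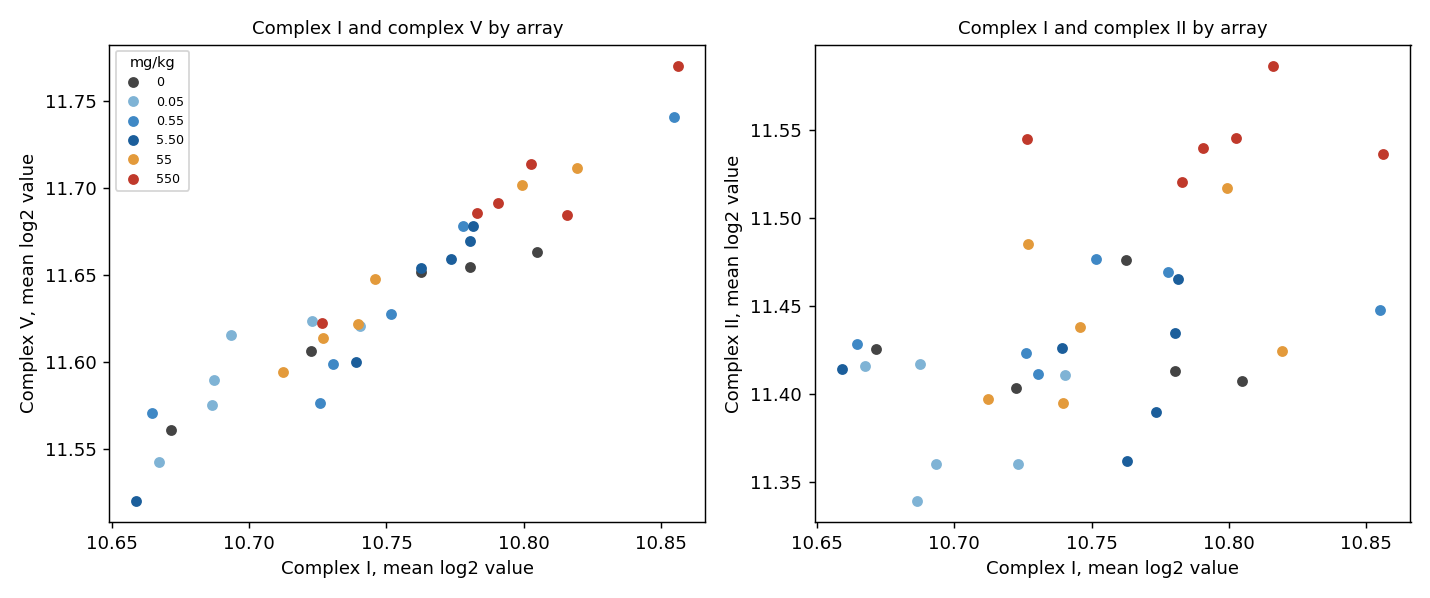
Mean log2 value of complex V (left) and of complex II (right) against that of complex I in each of the 35 arrays, coloured by dose in mg/kg (0 = vehicle). Complex I and V means rise together within the dose groups, and the 6 arrays at 550 mg/kg have the highest complex II means, 11.520 to 11.586, over complex I means of 10.73 to 10.86.

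Other mitochondrial genes were read from 6 lists beside the subunits. Against the 23 reference arrays, the carriers and makers of coenzyme Q and cytochrome c had 5 of 18 members higher and none lower, with a median of 0.12, where 2.63% of all probe sets were called, 1.58% higher and 1.05% lower. The same background stands beside the counts of the other lists. Coq6, a hydroxylase of coenzyme Q synthesis, rose by 0.27 ± 0.04 (adjusted p = 2.0e-05), and it was also called against vehicle alone (0.25 ± 0.05, adjusted p = 0.0085). Coq8a and Coq9, needed for the same synthesis, rose by 0.27 ± 0.07 and 0.14 ± 0.04. Etfdh and Etfa, which pass electrons from fatty acid oxidation to coenzyme Q, rose by 0.18 ± 0.04 and 0.12 ± 0.03. Cyc1, cytochrome c1 of complex III, which the symbol rule does not take in, differed by 0.11 ± 0.03 (adjusted p = 0.088).

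The tricarboxylic acid cycle and pyruvate dehydrogenase, which feed NADH and succinate to the chain, had 7 of 20 members higher and none lower (median 0.10). Idh2, the mitochondrial NADP-dependent isocitrate dehydrogenase, rose by 0.36 ± 0.05 (adjusted p = 5.1e-06), and also against vehicle alone (0.34 ± 0.06, adjusted p = 0.0037). The others were Pdha1 (0.26 ± 0.05), Idh3g, Idh3b, Dld, Dlst and Suclg1. Of the assembly factors, 4 of 42 rose and none fell (median 0.07). Acad9 and Tmem126b, which act together in building complex I, rose by 0.34 ± 0.04 and 0.28 ± 0.05 and were also called against vehicle alone (adjusted p = 3.3e-04 and 0.026). Cox15 makes heme a for complex IV and rose by 0.20 ± 0.04, and Ndufaf7, which acts in building complex I, rose by 0.20 ± 0.04.

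Of 19 regulators of mitochondrial gene expression, 1 was higher (Mterf1, 0.18 ± 0.05, adjusted p = 0.040) and none lower, beside 1.58% and 1.05% of all probe sets. Their differences were positive for 6 and negative for 13, with a median of -0.07. The transcription factor genes Nrf1, Gabpa and Esrra differed by -0.15 ± 0.10, -0.07 ± 0.05 and -0.05 ± 0.04, the coactivator gene Ppargc1a by -0.16 ± 0.13, Tfam by 0.02 ± 0.05 and the mitochondrial RNA polymerase gene Polrmt by -0.13 ± 0.05, none of them past the threshold. Of 21 carriers of the inner membrane, 1 was higher (Mpc2 of the pyruvate carrier, 0.22 ± 0.05) and 1 lower (Slc25a15, the ornithine carrier, -0.15 ± 0.04), beside 1.58% and 1.05% of all probe sets, with a median of 0.03. Of 23 protein stress and antioxidant genes 3 were higher and 1 lower (median 0.06). Sod2 and Prdx3, which remove superoxide and peroxide in mitochondria, rose by 0.27 ± 0.04 and 0.24 ± 0.04, and Txnrd2 by 0.21 ± 0.05. Atf5, a transcription factor of the mitochondrial stress response, fell by 0.49 ± 0.10 (adjusted p = 0.0042). The hepatocyte marker means given above, with and without Apoa1, come from the same arrays, and their part in these lists was not tested.

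**Figure D5:**
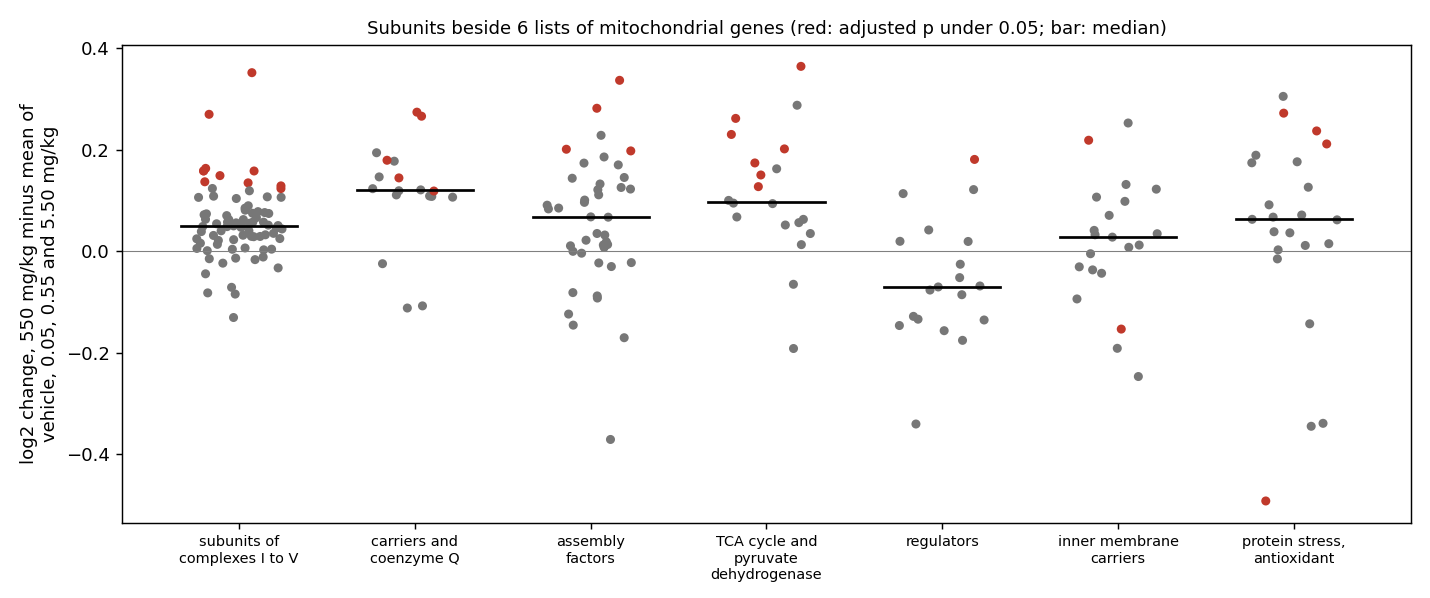
Change of each gene (points, log2 scale on the vertical axis) between 550 mg/kg and the mean of vehicle, 0.05, 0.55 and 5.50 mg/kg, for the 80 subunits and 6 lists of mitochondrial genes (horizontal axis), with the median as a bar and called genes in red. The medians lie above 0 for the subunits (0.05) and for 5 lists, and at -0.07 for the regulators.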

How the data were processed

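The deposited log2 expression values were produced by the authors through RMA, with affy also listed, per the submitters' processing notes, and the versions and chip definition were not given in the sources used here. Such processing gives arrays nearly equal distributions, so a change shared by most genes cannot be seen, and it shrinks changes of dim genes. No other column of per-sample values was left unused (0 such columns). Of 31099 probe sets 57 Affymetrix controls were left out; 20826 had a single symbol, 436 several and 9780 none listed. Probe sets of several symbols gave no name, which left out 7 of them (among them Atp5mc1, Atp5mc2 and Cox7a2). All 80 members matched a GRCr8 RefSeq gene by Entrez ID.

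Fits used R 4.3.3 and limma 3.58.1 (lmFit with 1 mean per group over 35 arrays, contrasts, eBayes, two-sided), with Benjamini-Hochberg adjustment over 31042 probe sets and a threshold of 0.05. The design text names another package, R/maanova, which was not used here. The scripts were tested on simulated data. Figures and counts used Python 3.11.15, pandas 2.3.3 and matplotlib 3.10.9. A complex mean averages the log2 values of its members within an array. For arrays, their number limits the precision: over all 31042 probe sets, not the members alone, the median SE of 550 mg/kg against vehicle was 0.085.

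Members, lists and tests were chosen with earlier results of these data known. Named members were those called in any comparison, per complex the smallest p and the largest and smallest change at 550 mg/kg against vehicle, and stated core subunits and tissue forms. Alternatives were dim probe sets left out (40%), other scalings, variance settings, only the groups compared, array weights, a replicate block, mean over probe sets, at least 1.2-fold, and each array left out.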

Additional observations from a re-analysis of the deposited data

Results flagged for a closer look

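In groups of 5 or 6 arrays, 3 values lay far from the others of their group. The 96 groups looked at were those of the complex means and of the members called in any comparison. Chance alone flags about 1 in 20 groups, so 3 is no excess. The complex I mean of 5.50 mg/kg replicate 5 was 10.659, below the other arrays of its group (median 10.77, highest 10.78). The complex III mean of 550 mg/kg replicate 1 was 11.634, below the other arrays at that dose (median 11.73), and it was the one array of the top dose within the vehicle range for that complex. Sdhd in 0.05 mg/kg replicate 3 read 11.93, above the rest of its group (median 11.78). No cause was tested for these.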

How the results depend on the processing

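The counts of members called at 0.05, 0.55, 5.50 and 55 mg/kg against vehicle stayed at 0 under all alternatives run. At 550 mg/kg against vehicle (2 called) the count was 3 of 73 with dim probe sets left out, 1 with array medians subtracted, 0 with only the groups compared, 0 at 1.2-fold or more, 1 with quantile normalization (an alternative chosen after seeing the data) and 0 to 2 with 1 array left out. The replicate numbers are not described as pairing samples, and same-numbered arrays did not deviate together (mean correlation 0.00, range -0.31 to 0.27, with 7 of 35 arrays closest to their own number); with a replicate block the count was 1 at 550 mg/kg against vehicle and 9 against the 23 reference arrays. For 550 against 55 mg/kg (1 called) it was 2 with trend and robust variance settings, 2 without variance moderation, 2 with array weights, 0 with only the groups compared, 0 at 1.2-fold and 0 to 2 with 1 array left out. Against the 23 arrays (11 called) it was 17 with trend and robust settings, 17 without moderation, 2 at 1.2-fold and 5 to 14 with 1 array left out. For the slope (0 called) it was 2 with dim probe sets left out, 1 with cyclic loess, 2 with trend and robust settings, 1 without moderation, 2 with array weights, 1 with the mean over probe sets, 1 with quantile normalization and 0 to 2 with 1 array left out. Fitting only the groups compared leaves fewer arrays to estimate the spread. The cause of this shift and of the others was not tested. The 125 medians of a complex recomputed under the alternatives all moved by less than 1 SD; at 550 mg/kg against vehicle they ran from 0.10 to 0.12 for complex II and from 0.00 to 0.02 for complex IV. Uncalled changes near 0 at 550 mg/kg against vehicle turned sign: Cox5a with array medians subtracted (-1.7e-05) or 1 array left out (-0.036 to 0.054), Cox7a1 with array medians subtracted (-0.0018), cyclic loess (-0.0083), quantile normalization (-0.0078) or 1 array left out (-0.011 to 0.059), Atp5mf (-0.040 to 0.015) and Cox8a (-0.017 to 0.015) with 1 array left out. The largest called change of a member was 1.28-fold (Atp5if1), and the number of arrays limits what smaller changes can be told from 0.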
